A study of Mus musculus with 2 samples.

Results

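The nuclear-encoded genes of the mitochondrial respiratory chain were taken from the gene list of a single nucleus RNA sequencing (snRNA-seq) data set of mouse epididymal white adipose tissue. Members were all genes whose symbols begin with Ndufa, Ndufb, Ndufc, Ndufs, Ndufv, Uqcr, Cox4i, Cox5, Cox6, Cox7 or Atp5, together with Sdha, Sdhb, Sdhc, Sdhd, Cyc1 and Cycs, without the Ndufaf assembly factors and without symbols that contain -ps. This gave 84 of 32285 genes. Of these, 38 belong by name to complex I, 4 to complex II, 9 to complex III, 1 is cytochrome c, 15 belong to complex IV and 17 to complex V. The rule used names only and no measured value. Male C57BL/6 N mice had received a high-fat diet (HF) from 8 weeks of age, for 6 weeks alone and for a further 8 weeks with intraperitoneal injections 3 times a week of homoharringtonine (HHT) or of phosphate-buffered saline (PBS). HHT is a plant alkaloid that blocks translation elongation, and it was dissolved in DMSO and diluted in PBS. The fat of 3 mice was pooled into 1 library of DAPI-sorted nuclei for HF-HHT and 1 for HF-PBS. All mice therefore shared the high-fat diet, and no library on normal chow was analysed here. With 1 pooled library a group there is no replicate and no test. Intervals are exact 95% intervals that cover counting error only. A difference between HF-HHT and HF-PBS cannot be told apart from a difference between 2 libraries.

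The respiratory chain passes electrons from NADH (complex I) and succinate (complex II) through ubiquinone, complex III and cytochrome c to oxygen at complex IV, and the proton gradient so built drives ATP synthase (complex V). Most of its subunits are encoded in the nucleus and translated in the cytosol, while a small core of complexes I, III, IV and V is encoded in mitochondrial DNA (mtDNA). White adipocytes hold fewer mitochondria than brown ones, and their respiratory capacity is known to fall in obesity. The messenger RNAs of respiratory chain subunits are translated in the cytoplasm. In a nuclear preparation part of the signal is therefore RNA freed from broken cells. The member totals are given here beside the free RNA of their own library, and free RNA values are given for some single members only.

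Promoter letters, which the rule did not use, were searched for 4 motifs. Of the 84 members, 67 had an entry by symbol among the RefSeq promoters (GRCm38.p6, 250 bases before to 50 bases after a start), on 300 bases each. The letters GCGCANGCG, an NRF1 motif (nuclear respiratory factor 1, a regulator of respiratory genes), searched on both strands, stood in the promoters of 21 of the 67 (31.3%), against 7.03% of all 27025 genes in the same table. AANATGGCG, a YY1 motif that can overlap a start codon, was found in 10 members (14.9%, against 2.76% of all genes), CCGGAAGT (GABPA) in 4 (5.97%, against 4.31%) and TCAAGGTCA (ERR, the oestrogen-related receptors) in 2 (2.99%, against 0.466%). In 35 of the 67 members none of the 4 motifs was found. The median GC content was 58.3% in the members and 52.7% in all genes. The sites of 5 members described with the results are shown as examples, with the NRF1 letters in capitals and read 5′ to 3′ on the strand that holds them. Sdha, the flavoprotein of complex II, held 3 such sites, and Cycs (cytochrome c), Atp5c1, Ndufs5 and Atp5o held 1 each.
Sdha, chr13:74350320-74350348, minus strand: cgtttacaggGCGCAGGCGcaccaccact
Sdha, chr13:74350277-74350305, minus strand: ggggcgtgttGCGCAGGCGcagaatcttc
Sdha, chr13:74350232-74350260, minus strand: gcgactcggtGCGCAAGCGcagtctgtcg
Cycs, chr6:50566612-50566640, plus strand: gtttgtgcgcGCGCATGCGagctagcatg
Atp5c1, chr2:10080431-10080459, minus strand: ctgagctcccGCGCACGCGcactgagtcc
Ndufs5, chr4:123718266-123718294, minus strand: gctgcttgctGCGCAGGCGcagacccgct
Atp5o, chr16:91931602-91931630, plus strand: tggcgccagaGCGCACGCGcgcgcgccag

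The 2 libraries held 73313558 UMIs (unique molecular identifiers, each 1 counted RNA molecule) in HF-HHT and 76197757 in HF-PBS, and 6446 and 6663 nuclei were kept, with medians of 3969.5 and 4302 UMIs. They shared 20 of the called barcodes. Clusters were named from marker genes, so the names are "-like" names. Adipocyte-like nuclei numbered 847 in HF-HHT and 147 in HF-PBS, nuclei like adipocyte precursor cells (APC-like) 672 and 748, and macrophage-like nuclei 2256 and 3609. The summed adipocyte markers stood at 12571 CPM (counts per 1000000 UMIs) in HF-HHT and 9772 CPM in HF-PBS in the adipocyte-like nuclei, the APC markers at 10673 and 12127 CPM in the APC-like nuclei, and the macrophage markers at 6547 and 7620 CPM in the macrophage-like nuclei. The libraries also differed in what they contained. In all, 693 nuclei with Pax8 and other markers of duct epithelium and 121 nuclei with markers of multiciliated epithelium came from HF-HHT, against 1 and 0 from HF-PBS. B cell-like nuclei numbered 39 in HF-HHT and 740 in HF-PBS. Free RNA was read from the barcodes ranked 45000 to 90000 by size, which held 8031942 UMIs in HF-HHT and 8987405 in HF-PBS.

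Summed over all members, the respiratory chain genes made up 1375 CPM (1352 to 1398) of the UMIs of adipocyte-like nuclei in HF-HHT and 1008 CPM (963 to 1055) in HF-PBS. APC-like nuclei had 1392 CPM (1348 to 1437) in HF-HHT and 1153 CPM (1124 to 1183) in HF-PBS, and macrophage-like nuclei 1920 CPM (1894 to 1946) and 1257 CPM (1243 to 1273). Adipocyte-like nuclei were thus the lowest class in HF-PBS among those with over 1 nucleus, and in HF-HHT their level and that of the APC-like nuclei lay within each other's intervals. The free RNA held more of the members than any of these 3 classes, with 4094 CPM (4050 to 4138) in HF-HHT and 2028 CPM (1999 to 2057) in HF-PBS. Erythroid-like nuclei, the class with the highest level in both libraries, had 3118 CPM (2966 to 3276) in HF-HHT and 4361 CPM (3883 to 4881) in HF-PBS, on 208 and 53 nuclei. The free RNA of HF-HHT was richer in members by 2.02 times. In the same libraries ribosomal protein genes stood at 15134 CPM in HF-HHT and 7303 CPM in HF-PBS, and mtDNA-encoded genes at 2117 and 1152 CPM. Subtraction of the estimated free RNA was run for the adipocyte-like, APC-like and macrophage-like nuclei and is given with each; for the other classes its part was not tested.

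**Figure D1:**
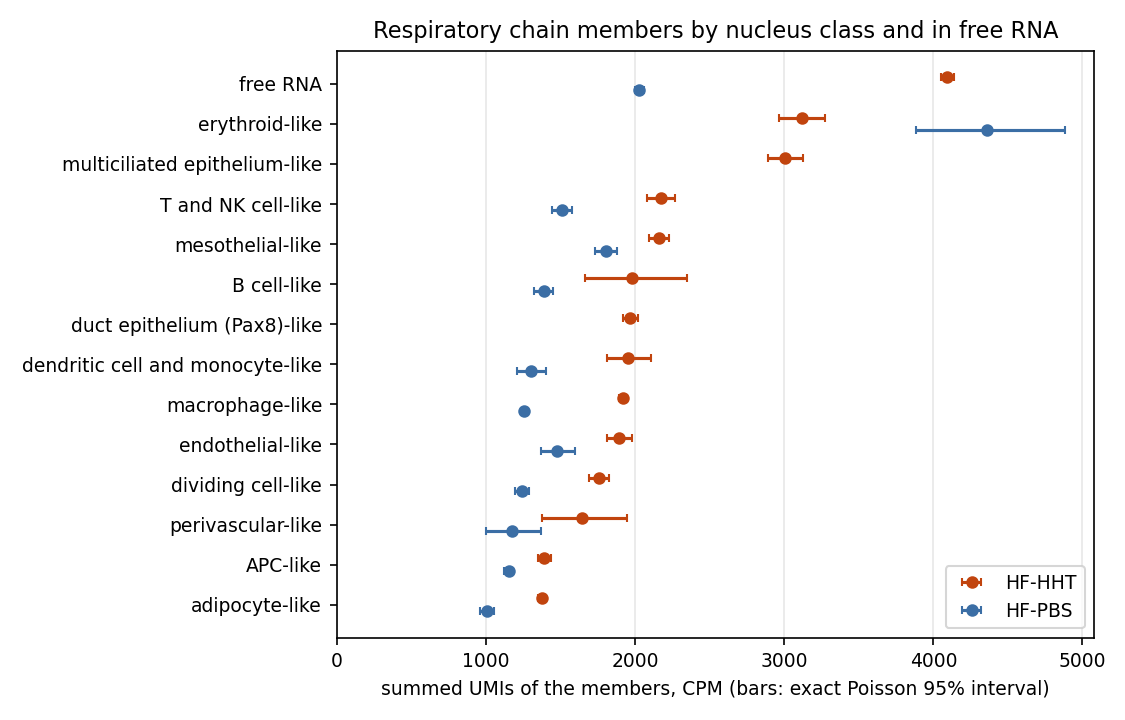
Summed CPM of the 84 members (x axis) in each nucleus class and in free RNA (y axis), HF-HHT in orange-red above HF-PBS in blue, with exact Poisson 95% intervals; a class is drawn for a library only where it held at least 50000 UMIs. HF-HHT lay above HF-PBS in 10 of the 11 classes drawn for both libraries, for example at 1920 against 1257 CPM in macrophage-like nuclei, and below it in erythroid-like nuclei.

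The first comparison set HF-HHT against HF-PBS in the nuclei of one class. The total of the members was higher in HF-HHT in 10 of the 11 classes with at least 20 nuclei in each library, with the interval above 0 in all 10. The median ratio over all measured genes was also above 0 in 10 of the 11, from 0.01 in erythroid-like to 0.32 in adipocyte-like nuclei, and was -0.09 in perivascular-like nuclei. The log2 ratio of the totals was 0.45 (0.38 to 0.52) in adipocyte-like nuclei, 0.27 (0.21 to 0.33) in APC-like nuclei and 0.61 (0.58 to 0.64) in macrophage-like nuclei. It was 0.53 (0.44 to 0.61) in T and NK cell-like, 0.50 (0.42 to 0.58) in dividing, 0.36 (0.23 to 0.49) in endothelial-like and 0.26 (0.19 to 0.33) in mesothelial-like nuclei. The erythroid-like nuclei gave -0.48 (-0.66 to -0.30). Of the 76 members with at least 20 UMIs over both libraries in each of the 3 main classes, 55 had a ratio above 0 in all 3 and 15 were at least 1.5-fold higher in all 3. Of all 10835 genes measured in the 3 classes, 35.3% were above 0 in all 3 and 5.81% were 1.5-fold higher in all 3. The 3 ratios come from the same pair of libraries and are not independent.

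In adipocyte-like nuclei 32 of 77 measured members (at least 20 UMIs over both libraries) were at least 1.5-fold higher in HF-HHT and 0 were 1.5-fold lower, where 35.3% of all 12558 measured genes were higher and 12.2% lower by the same rule. The members' median log2 ratio was 0.52, against 0.32 over all measured genes. The clearest member was Ndufb3, an accessory subunit of the membrane arm of complex I, with 45.8 CPM in HF-HHT (458 UMIs) and 16.6 CPM in HF-PBS (31 UMIs), a log2 ratio of 1.46 (0.94 to 2.04). Ndufs5, another accessory subunit of complex I, had 23.5 CPM in HF-HHT (235 UMIs) and 7.51 CPM in HF-PBS (14 UMIs), for a log2 ratio of 1.65 (0.87 to 2.54). Cox6b1, a subunit of complex IV on the intermembrane side, had 20.2 CPM (202 UMIs) and 6.43 CPM (12 UMIs), for a log2 ratio of 1.65 (0.81 to 2.63), which was 0.79 without the upper limits on UMIs and genes. All 3 were higher in HF-HHT with the counting interval above 0, and each had over 10 UMIs in the HF-PBS library. Free RNA was higher in HF-HHT for them too, with log2 ratios of 1.34 for Ndufb3, 1.06 for Ndufs5 and 1.30 for Cox6b1.

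The other members at the top of the adipocyte-like list belonged to ATP synthase and rested on few UMIs. Atp5d, the delta subunit of its central stalk, had 5.90 CPM in HF-HHT (59 UMIs) and 1.61 CPM in HF-PBS (3 UMIs), with a log2 ratio of 1.88 (0.26 to 4.19). Atp5h, subunit d of the peripheral stalk, had 7.70 CPM (77 UMIs) and 2.68 CPM (5 UMIs), with a ratio of 1.52 (0.24 to 3.19). By complex, 12 of 17 members of complex V were 1.5-fold higher, against 12 of 36 of complex I, 2 of 4 of complex II, 3 of 9 of complex III and 3 of 10 of complex IV. The total of complex V had a ratio of 0.69 (0.53 to 0.85), from 307 CPM in HF-HHT and 191 CPM in HF-PBS. That of complex I was 0.35 (0.25 to 0.45), from 636 CPM in HF-HHT and 498 CPM in HF-PBS. Without the 3 members of the highest CPM, complex I gave 0.43, complex II (then Sdhd alone) 0.98 and complex III 0.68. Complex IV then gave 0.63 and complex V 0.66, so complex V was no longer the highest. Atp5c1, the gamma subunit that turns inside the catalytic head, was the member of complex V with the most UMIs in these nuclei, with 59.1 CPM in HF-HHT (591 UMIs) and 30.6 CPM in HF-PBS (57 UMIs), for a log2 ratio of 0.95 (0.56 to 1.37). Atp5f1, subunit b of the peripheral stalk, had 50.9 and 34.8 CPM, for a log2 ratio of 0.55 (0.17 to 0.94).

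Members at the low end of the adipocyte-like list did not fall by the 1.5-fold rule. Ndufa7, an accessory subunit of complex I, had 31.1 CPM in HF-HHT (311 UMIs) and 39.7 CPM in HF-PBS (74 UMIs), a log2 ratio of -0.35 (-0.72 to 0.04). Ndufa5 and Ndufa6, also accessory subunits of complex I, both had ratios of -0.29, with intervals of -1.18 to 0.70 and -1.04 to 0.54. Atp5g3 gave -0.10 (-0.72 to 0.57) and Cox5a, a complex IV subunit, -0.08 (-0.62 to 0.49). For all 5 the counting interval included 0, so no direction could be read at this depth.

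The adipocyte-like nuclei came in 2 clusters at the finer resolution of 1.0, given here beside all measured genes. In the larger cluster (led by genes such as Npr3 and Ghr), members stood at 1296 CPM (1271 to 1322) in HF-HHT on 595 nuclei and 943 CPM (896 to 991) in HF-PBS on 121 nuclei, a log2 ratio of 0.46 (0.38 to 0.54), where the members' median was 0.53 and that of all genes 0.32. In the smaller cluster, led by Adrb3, Nrg4, Acacb and Pck1, genes known from lipid handling and beta-adrenergic signalling, they stood at 1624 CPM (1573 to 1675) on 251 nuclei and 1470 CPM (1317 to 1635) on 26 nuclei, for a log2 ratio of 0.14 (-0.02 to 0.31), where the members' median and that of all genes were both 0.075. These clusters were chosen after their values were seen, and the difference between their ratios was not tested. The summed macrophage markers in the adipocyte-like nuclei stood at 226 CPM in HF-HHT and 1646 CPM in HF-PBS. Mertk alone gave 127 CPM of this sum in HF-HHT and 1388 CPM in HF-PBS. The erythroid markers went the other way, at 156 CPM in HF-HHT and 6.97 CPM in HF-PBS. Kel, Klf1 and Slc4a1 were among those at 0 in HF-PBS. Free RNA held 1824 CPM of the erythroid markers in HF-HHT and 30.7 CPM in HF-PBS, and 3428 and 5810 CPM of the macrophage markers. The part of either list in the result was not tested. Subtracting the estimated free RNA left the total at 0.39, and with the normalization of edgeR (TMM), which moves the scale by 0.27, it came to 0.18, with 21 members in place of 32 at 1.5-fold. The share of all genes at 1.5-fold is not given for TMM.

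**Figure D2:**
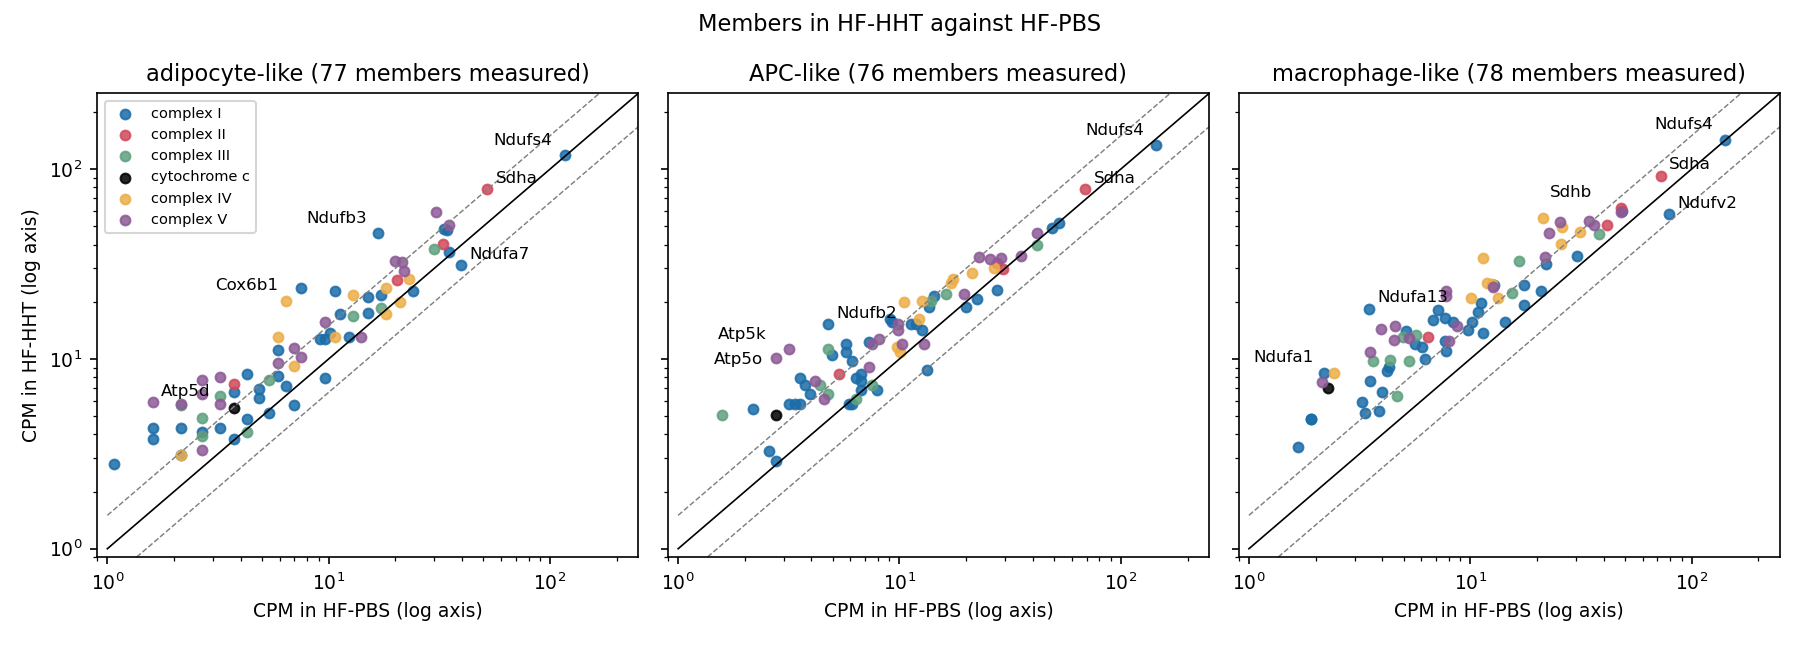
CPM of each measured member in HF-HHT (y axis, log) against HF-PBS (x axis, log) in adipocyte-like, APC-like and macrophage-like nuclei, coloured by complex; the solid line marks equality and the dashed lines a 1.5-fold difference. Members with few UMIs lie mostly above the upper dashed line in the macrophage-like panel, where 56 of 78 were 1.5-fold higher, while Ndufs4 lies near the line of equality in all 3 panels.

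In APC-like nuclei 30 of 76 measured members were at least 1.5-fold higher in HF-HHT and 1 was lower, where 22.9% of all 12157 measured genes were higher and 8.02% lower. The members' median log2 ratio was 0.43, against 0.17 over all measured genes. Atp5o, the subunit that ties the stalk of ATP synthase to its head (OSCP), had 10.1 CPM in HF-HHT (28 UMIs) and 2.77 CPM in HF-PBS (14 UMIs), a log2 ratio of 1.87 (0.90 to 2.91). Atp5k, subunit e in its membrane part, had 11.2 CPM (31 UMIs) and 3.17 CPM (16 UMIs), for a log2 ratio of 1.83 (0.91 to 2.80). Ndufb2, of the membrane arm of complex I, had 15.2 CPM (42 UMIs) and 4.75 CPM (24 UMIs), for a log2 ratio of 1.68 (0.92 to 2.47). The Rieske iron-sulfur protein Uqcrfs1 gave 1.68 (0.33 to 3.14) on 14 and 8 UMIs, and Ndufa1 1.32 (0.10 to 2.59) on 15 and 11. These 5 members all rested on under 50 UMIs a library. Their log2 ratios of HF-HHT over HF-PBS in free RNA ran from 0.94 (Ndufb2) to 1.87 (Atp5o).

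Near the low end stood Ndufs3 (-0.25, -0.70 to 0.19), Ndufa6 (-0.20), Ndufs4 (-0.11) and Ndufa10 (-0.11), all subunits of complex I and none lower by 1.5-fold. Under other settings 2 of these were 1.5-fold lower, Ndufa6 with -1.55 after subtraction of free RNA and Ndufs3 with -0.62 in nuclei with no mtDNA-encoded UMI. The erythroid markers in APC-like nuclei summed to 252 CPM in HF-HHT and 45.1 CPM in HF-PBS (Kel, Klf1 and Slc4a1 among those at 0 in HF-PBS). The neutrophil markers summed to 27.2 and 2.18 CPM (Retnlg and S100a9 at 0 in HF-PBS) and the adipocyte markers to 571 and 247 CPM. Duct epithelium markers summed to 122 and 45.9 CPM and multiciliated ones to 27.2 and 5.14 CPM. Some lists were lower in HF-HHT, such as the macrophage markers at 390 and 547 CPM. Free RNA held 4630 and 1442 CPM of the adipocyte markers and 1824 and 30.7 CPM of the erythroid markers. The part of these lists was not tested. The total of the APC-like nuclei did not hold under subtraction of free RNA. These nuclei carried an estimated 11.4% (10.7 to 12.1) of free RNA in HF-HHT and 9.41% (9.05 to 9.78) in HF-PBS, read from macrophage markers, which would give 33.5% of the member UMIs in HF-HHT and 16.5% in HF-PBS. After its subtraction the log2 ratio of the totals came to -0.020, and 11 members in place of 30 were 1.5-fold higher. In nuclei with no mtDNA-encoded UMI, a setting added after the data were seen, 17 were. The share of all genes at 1.5-fold is not given for these settings.

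In macrophage-like nuclei 56 of 78 measured members (at least 20 UMIs over both libraries) were at least 1.5-fold higher in HF-HHT and 0 were lower, where 25.9% of all 14382 measured genes were higher and 8.16% lower. The members' median log2 ratio was 0.93, against 0.16 over all measured genes. Some marker lists of other cells also stood higher in these nuclei. The 6 neutrophil markers summed to 195 CPM in HF-HHT and 46.2 CPM in HF-PBS, where Retnlg and S100a9 were at 0 in HF-PBS. Csf3r alone gave 179 CPM of this sum in HF-HHT and 44.8 CPM in HF-PBS. It was also among the leading genes of a macrophage-like cluster, so the sum is not a measure of neutrophils alone. The 10 erythroid markers summed to 176 and 6.45 CPM, where Kel, Rhag and Slc4a1 were among those at 0 in HF-PBS. The 8 markers of dividing cells, all with UMIs, summed to 95.3 and 41.8 CPM. Free RNA held 1824 CPM of the erythroid markers in HF-HHT and 30.7 CPM in HF-PBS. It held 95.7 and 35.3 CPM of the neutrophil markers and 380 and 192 CPM of those of dividing cells. The part of these lists in the result was not tested. Ndufa13 (also known as GRIM-19), an accessory subunit of complex I, had 18.4 CPM in HF-HHT (198 UMIs) and 3.48 CPM in HF-PBS (75 UMIs), a log2 ratio of 2.40 (2.01 to 2.80). It is the 1 member that another gene of the list, Yjefn3, overlaps on the same strand, so that its count is uncertain where reads fall in both. Ndufa1, a small membrane-arm subunit of complex I on the X chromosome, had 8.46 CPM (91 UMIs) and 2.18 CPM (47 UMIs), for a log2 ratio of 1.95 (1.43 to 2.49). Atp5k had 14.4 CPM (155 UMIs) and 3.95 CPM (85 UMIs), for a log2 ratio of 1.87 (1.48 to 2.27). Atp5g1, which encodes the c-ring subunit of ATP synthase, gave 1.82 (1.28 to 2.37) on 81 and 46 UMIs. Cox5b, a complex IV subunit, gave 1.81 (1.30 to 2.33) on 91 and 52. The free RNA log2 ratios of these 5 members ran from 1.38 (Atp5k) to 2.01 (Cox5b).

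The macrophage-like totals are given by complex. Complex II stood at 218 CPM in HF-HHT and 168 CPM in HF-PBS, a log2 ratio of 0.37 (0.30 to 0.45), and complex I at 740 and 564 CPM, for a log2 ratio of 0.39 (0.35 to 0.43). Complex III gave 0.72 (0.62 to 0.81), complex V, at 465 and 257 CPM, 0.85 (0.80 to 0.91), and complex IV, at 327 and 166 CPM, 0.98 (0.91 to 1.04). The totals are led by a few genes: without the 3 members of the highest CPM, complex I gave 0.70, complex II (then Sdhd alone) 1.02, complex III 1.12, complex IV 0.999 and complex V 1.12, so the order of the complexes was not kept. Cytochrome c, Cycs, the soluble electron carrier between complexes III and IV, had 7.06 CPM in HF-HHT (76 UMIs) and 2.27 CPM in HF-PBS (49 UMIs), for a log2 ratio of 1.63 (1.10 to 2.18). Cyc1, the haem-bearing subunit of complex III, had 6.41 and 4.64 CPM, for a log2 ratio of 0.47 (0.00 to 0.92). In adipocyte-like nuclei the same pair gave 0.55 (-0.59 to 1.93) and 0.54 (-0.80 to 2.24), and in APC-like nuclei 0.87 (-0.31 to 2.05) and 0.46 (-0.51 to 1.40), where the counts were too few for a direction.

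All 7 macrophage-like clusters at the finer resolution had a higher member total in HF-HHT, with the interval above 0, and log2 ratios of 0.27 (0.18 to 0.37) to 0.55 (0.45 to 0.64). Each lay below the 0.61 of the class as a whole, and the clusters took unequal shares of the 2 libraries. The cluster led by Acod1, Marco, Saa3 and Nos2, genes of inflammatory activation, had the highest member level of the 7, 2602 CPM (2539 to 2665) in HF-HHT and 2018 CPM (1935 to 2104) in HF-PBS, and it supplied 457 nuclei to HF-HHT and 186 to HF-PBS. The cluster led by Mmp12 and Gpnmb, the second known from lipid-associated macrophages, had 1463 CPM (1388 to 1540) on 163 nuclei and 1167 CPM (1135 to 1200) on 465 nuclei. mtDNA-encoded genes moved with the members: their total in macrophage-like nuclei was 397 CPM in HF-HHT and 163 CPM in HF-PBS. In nuclei with no mtDNA-encoded UMI the ratio of the member totals was 0.42 with 42 members at 1.5-fold, and in nuclei with at least 5000 UMIs 0.63. Both settings were added after the data were seen, and the share of all genes at 1.5-fold is not given for them. The estimated free RNA share was 6.77% (5.96 to 7.66) in HF-HHT and 6.38% (5.47 to 7.40) in HF-PBS, which would give 14.4% and 10.3% of the member UMIs. After its subtraction the ratio was 0.55. With the share read from mtDNA-encoded genes, a higher estimate, free RNA would give 40.0% of the member UMIs in HF-HHT and 22.8% in HF-PBS. It is no strict limit, because nuclei were kept only under 0.5% mitochondrial UMIs.

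1 member went the other way in macrophage-like nuclei. Ndufv2, an iron-sulfur subunit in the NADH-oxidizing part of complex I (17, 66078638 to 66101559, GRCm38, minus strand), had 58.1 CPM in HF-HHT (625 UMIs) and 78.8 CPM in HF-PBS (1698 UMIs), a log2 ratio of -0.44 (-0.58 to -0.31), which is short of 1.5-fold. With TMM factors it was -0.59, with median-of-ratios factors -0.60 and in nuclei with no mtDNA-encoded UMI -0.64, all past 1.5-fold. It was below 0 in all 7 finer clusters, with the interval below 0 in 5. In mesothelial-like nuclei it had 46.1 and 70.7 CPM, for a log2 ratio of -0.62 (-1.06 to -0.18). In adipocyte-like nuclei it had 47.5 CPM (475 UMIs) and 34.3 CPM (64 UMIs), for a log2 ratio of 0.47 (0.09 to 0.87). In APC-like nuclei it had 51.8 and 52.4 CPM, for a log2 ratio of -0.02 (-0.32 to 0.28). Its free RNA level was 63.5 CPM in HF-HHT and 63.9 CPM in HF-PBS, and the ratio of -0.01 (-0.18 to 0.17) lay within counting error.

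Ndufs4, a complex I subunit whose loss causes Leigh syndrome in humans and a like disease in mice, had the most UMIs of all members in each main class. It had 118.1 CPM in HF-HHT and 116.3 CPM in HF-PBS in adipocyte-like nuclei, 134 and 144 CPM in APC-like nuclei and 143 and 142 CPM in macrophage-like nuclei. The last pair gave a ratio of 0.01 (-0.08 to 0.10), which was -0.14 with TMM factors. Sdha, the flavoprotein of complex II, had 92.4 CPM in HF-HHT and 72.6 CPM in HF-PBS in macrophage-like nuclei (ratio 0.35, 0.23 to 0.46), 78.3 and 52.0 CPM in adipocyte-like nuclei (0.59, 0.29 to 0.91) and 78.2 and 69.0 CPM in APC-like nuclei (0.18, -0.07 to 0.43). Sdhb, its iron-sulfur subunit, had 62.4 and 48.0 CPM in macrophage-like nuclei (0.38, 0.24 to 0.52), 25.9 and 20.4 CPM in adipocyte-like nuclei and 31.9 and 27.5 CPM in APC-like nuclei. Of the membrane anchors, Sdhc gave 0.28 (0.13 to 0.44) and Sdhd 1.02 (0.67 to 1.37) in macrophage-like nuclei, and 0.30 (-0.09 to 0.72) and 0.98 (-0.13 to 2.34) in adipocyte-like nuclei.

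**Figure D3:**
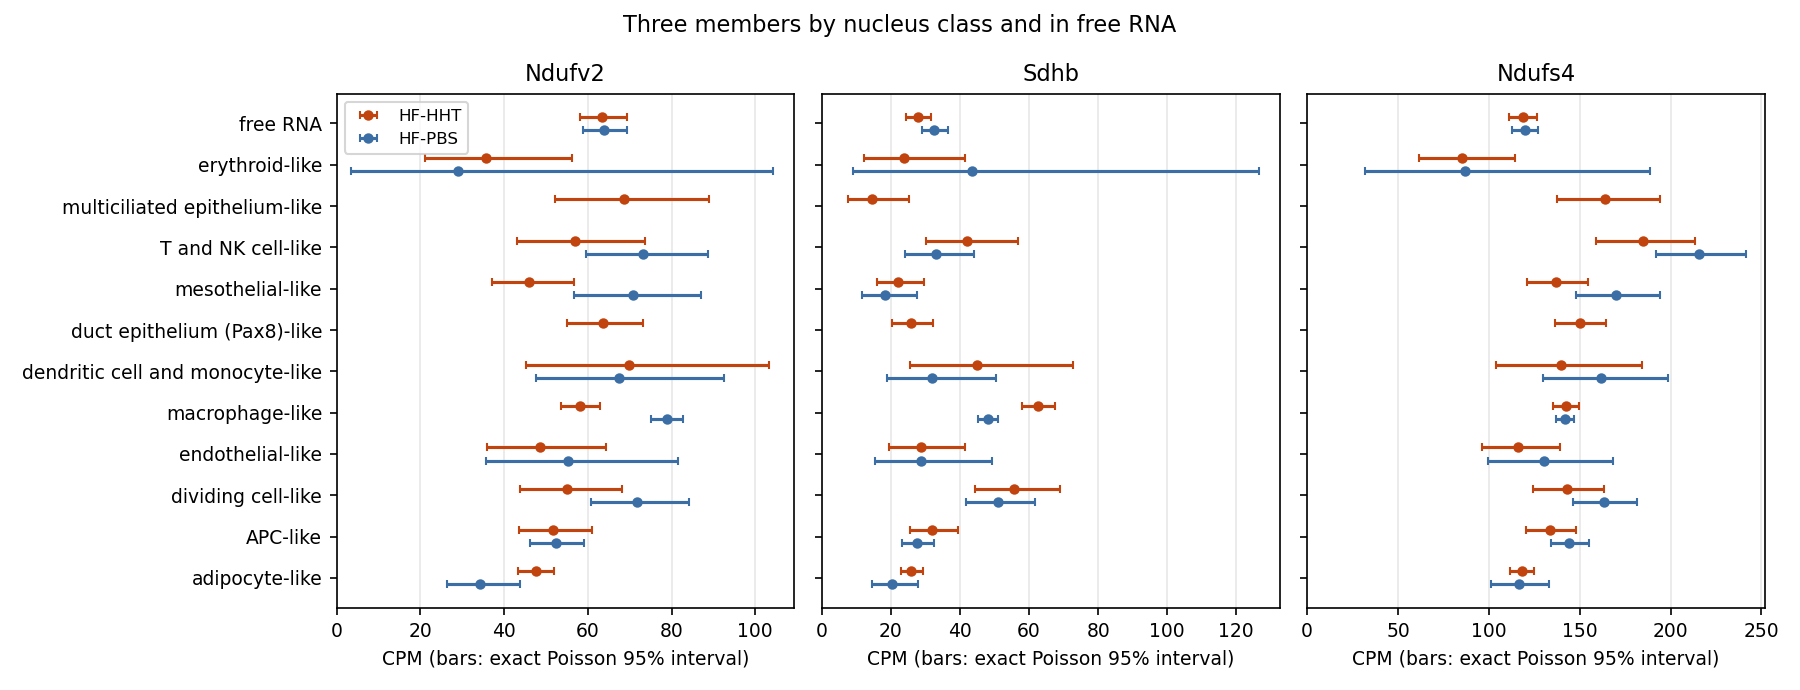
CPM (x axis, with exact Poisson 95% intervals) of Ndufv2, Sdhb and Ndufs4 in nucleus classes and in free RNA (y axis), HF-HHT in orange-red above HF-PBS in blue. B cell-like and perivascular-like nuclei are not drawn. Ndufv2 was lower in HF-HHT in macrophage-like nuclei, at 58.1 against 78.8 CPM, Sdhb in macrophage-like nuclei of HF-HHT, at 62.4 CPM, stood above its free RNA level of 27.8 CPM, and Ndufs4 differed by less than the counting error there.

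The length of a member went with its ratio. The members' genes ran from 953 bases (Cox6a2) to 105382 bases (Cox7b2), with a median of 7245 bases, against a median of 24522 bases over the genes measured in macrophage-like nuclei. In that class the 38 measured members shorter than the members' median had a median log2 ratio of 1.23 and the 40 longer ones 0.60; over all measured genes cut at the same length the medians were 0.55 and 0.12. Spearman's rho between length and ratio was -0.69 across the 78 members, and it was -0.31 across 77 in adipocyte-like and -0.44 across 76 in APC-like nuclei. These are descriptions across genes of 1 pair of libraries, and genes are not independent replicates. In adipocyte-like nuclei the medians were 0.59 for short and 0.41 for long members, against 0.51 and 0.28 over all genes, and in APC-like nuclei 0.63 and 0.21, against 0.40 and 0.14. The total of the long members in macrophage-like nuclei still gave 0.42 (0.39 to 0.45), and that of the short ones 1.16 (1.11 to 1.21).

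**Figure D4:**
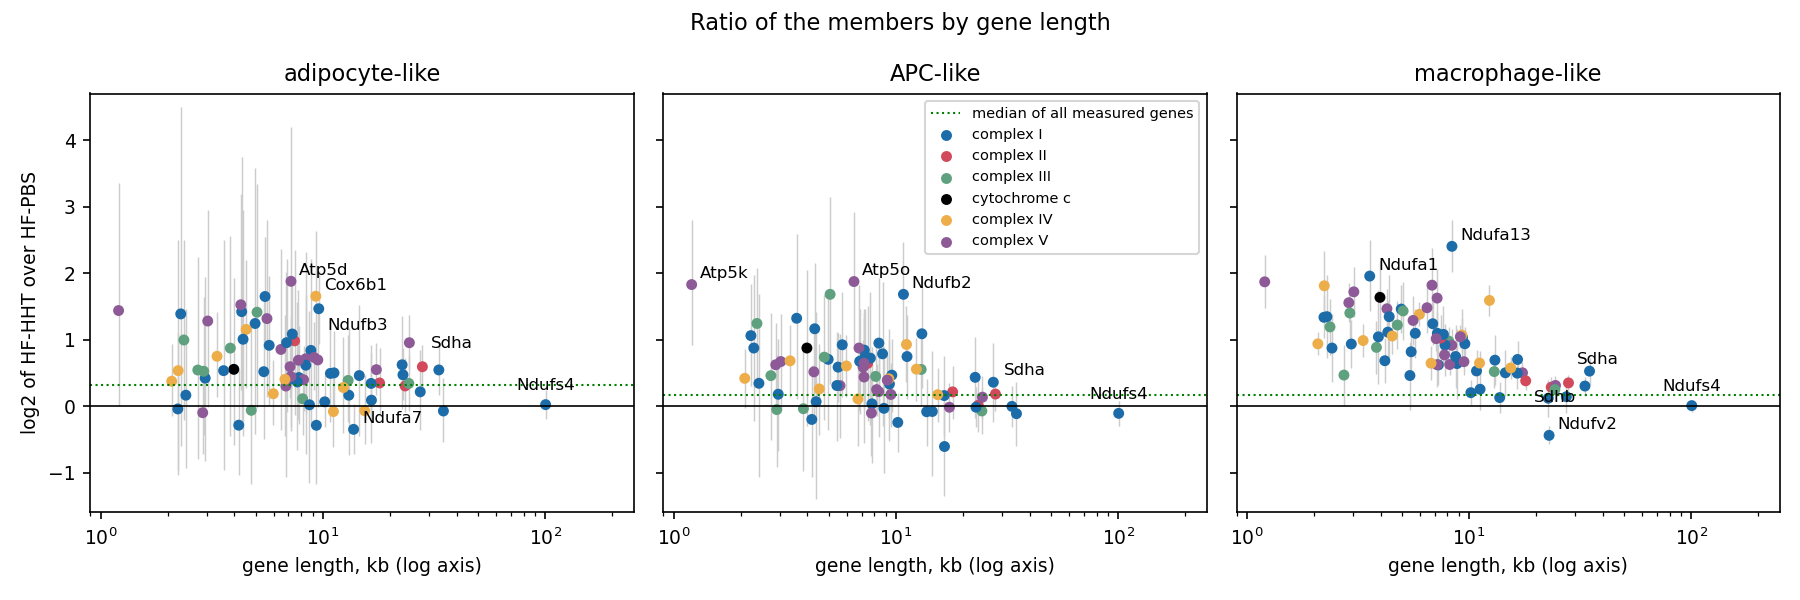
Log2 ratio of HF-HHT over HF-PBS (y axis, grey bars: exact 95% counting interval) against gene length in kb (x axis, log) for the measured members in adipocyte-like, APC-like and macrophage-like nuclei, coloured by complex; the dotted line is the median of all measured genes of the class. Short members lie higher than long ones, most of all in macrophage-like nuclei (rho -0.69), and Ndufv2 lies lowest there.

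The second comparison, nuclei against the free RNA of the same library, shows where a member's UMIs stood relative to the RNA around the nuclei. In adipocyte-like nuclei 70 of 79 members measured over nuclei and free RNA were at least 1.5-fold lower than in free RNA in HF-HHT, where 51.3% of all measured genes were, and 63 of 78 in HF-PBS, where 57.7% were. In APC-like nuclei 72 of 79 were lower in HF-HHT (48.4% of all genes) and 60 of 78 in HF-PBS (45% of all genes), and in macrophage-like nuclei 66 of 79 in HF-HHT (47.7%) and 57 of 78 in HF-PBS (39.9%). The members' median log2 ratio of nuclei over free RNA was -1.99 in HF-HHT and -1.41 in HF-PBS in adipocyte-like nuclei, -1.93 and -1.14 in APC-like nuclei and -1.46 and -1.19 in macrophage-like nuclei. Over all measured genes the medians were -0.63 and -0.82, -0.53 and -0.45, and -0.51 and -0.33, each with HF-HHT before HF-PBS.

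No member was 1.5-fold above free RNA in adipocyte-like or APC-like nuclei, where 16% and 15% of all genes were in adipocyte-like nuclei of HF-HHT and HF-PBS and 15.8% and 17.6% in APC-like nuclei. In macrophage-like nuclei 1 member was in HF-HHT and 0 in HF-PBS, where 16.8% and 9.22% of all genes were. That member was Sdhb, with 62.4 CPM in the nuclei and 27.8 CPM in free RNA of HF-HHT, a log2 ratio of 1.17, and 48.0 and 32.5 CPM in HF-PBS, for a log2 ratio of 0.56. Ndufs4 lay within 1.5-fold of the free RNA level in every main class. Its ratios were -0.01 in HF-HHT and -0.04 in HF-PBS in adipocyte-like nuclei and 0.26 and 0.25 in macrophage-like nuclei. In macrophage-like nuclei of HF-HHT it had 143 CPM (136 to 150), above 119 CPM (111 to 126) in free RNA. In those of HF-PBS it had 142 CPM (137 to 147), above 120 CPM (113 to 127) in free RNA. Cox4i1, the main form of a complex IV subunit, had the highest CPM of all members in free RNA of HF-HHT (191 CPM, and 73.4 CPM in HF-PBS), and its ratio of nuclei over free RNA in adipocyte-like nuclei was -2.86 in HF-HHT and -1.67 in HF-PBS. Atp5a1, the alpha subunit of the ATP synthase head (130 and 61.3 CPM in free RNA), gave -1.99 and -1.63 there, and Atp5l, a membrane subunit (112 and 63.2 CPM), -1.96 and -1.52.

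Free RNA itself held more of the members in HF-HHT. Of 79 members measured in free RNA, 69 were at least 1.5-fold higher in HF-HHT and 0 lower, where 34.7% of all 15527 measured genes were higher and 12.8% lower, and the median log2 ratio was 1.20, against 0.24 over all genes. Complex IV stood at 827 CPM in HF-HHT and 349 CPM in HF-PBS, for a log2 ratio of 1.25 (1.19 to 1.31), and complex II at 243 and 176 CPM, for a log2 ratio of 0.46 (0.37 to 0.56). Across the 78 members measured in macrophage-like nuclei, Spearman's rho between a member's ratio in free RNA and in the nuclei was 0.83, and it was 0.50 across 76 in APC-like and 0.34 across 77 in adipocyte-like nuclei. The points share libraries, and the nuclei hold some of the free RNA. In adipocyte-like nuclei the estimated share of free RNA was 4.21% (3.56 to 4.94) in HF-HHT, from mesothelial markers, and 4.76% (3.16 to 6.90) in HF-PBS, from T and NK cell markers. It would give 12.5% of the member UMIs in HF-HHT and 9.58% in HF-PBS. With the share read from mtDNA-encoded genes it would give 18.4% and 19.3%.

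**Figure D5:**
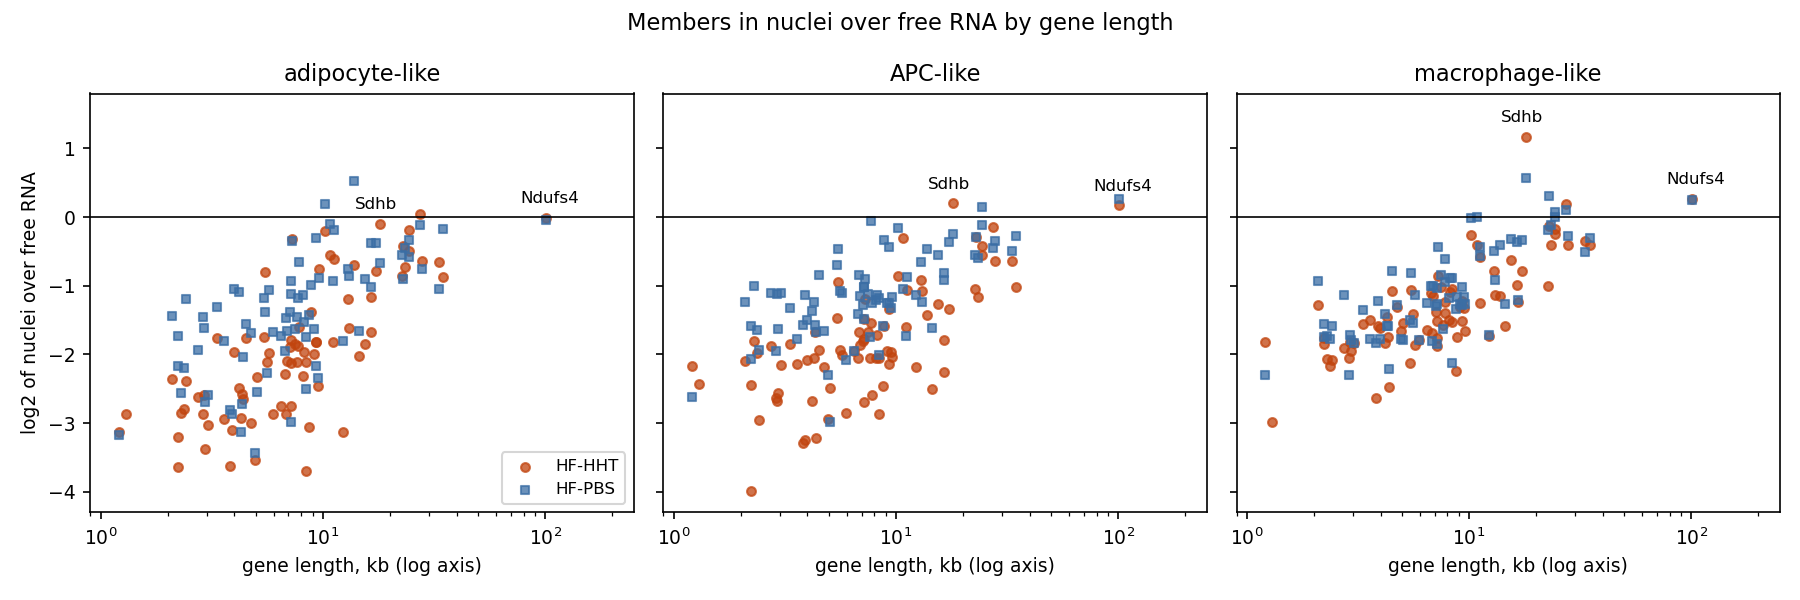
Log2 ratio of nuclei over free RNA (y axis) against gene length in kb (x axis, log) for the members in adipocyte-like, APC-like and macrophage-like nuclei, HF-HHT as orange-red circles and HF-PBS as blue squares. The short members lie far below 0, and Sdhb in macrophage-like nuclei of HF-HHT, at 1.17, is the highest point.

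Classes were also compared within a library. In HF-HHT the member total of adipocyte-like over macrophage-like nuclei had a log2 ratio of -0.48 (-0.51 to -0.45), and in HF-PBS -0.32 (-0.39 to -0.25), with member medians of -0.65 and -0.35 beside -0.25 and -0.43 over all genes. Adipocyte-like over APC-like nuclei gave -0.02 (-0.07 to 0.03) in HF-HHT and -0.19 (-0.27 to -0.12) in HF-PBS. The member medians were -0.17 and -0.26, beside -0.20 and -0.37 over all genes.

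Of the subunits with a tissue-bound form, most UMIs came from the common form. Cox4i2, the form of Cox4i1 known from lung and from low oxygen, had 5 of 1526 UMIs of the pair over all nuclei in HF-HHT (0.328%, exact interval 0.106 to 0.763) and 4 of 820 in HF-PBS (0.488%, 0.133 to 1.24). Cox7a1, the heart and muscle form that also marks brown fat, had 8 of 1892 UMIs of its set in HF-HHT (0.423%, 0.183 to 0.832) and 1 of 1434 in HF-PBS (0.0697%, 0.00177 to 0.388). Cox6a2, the muscle form of Cox6a1, had 4 UMIs in HF-HHT and 5 in HF-PBS, Ndufa4l2, a form of Ndufa4 known to rise in low oxygen, 2 and 3, and Cox7b2, a testis form, 1 and 1. Ndufa4 itself, named for complex I and now counted with complex IV, gave 12.8 CPM in HF-HHT and 9.65 CPM in HF-PBS in adipocyte-like nuclei. Cox6b2, a testis form of Cox6b1, made up 8.01% (6.30 to 10.0) of the pair in HF-HHT, 70 UMIs, and 2.76% (1.48 to 4.67) in HF-PBS, 13 UMIs. Of the 70 in HF-HHT, 26 came from mesothelial-like nuclei.

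Of the 3 genes for the c-ring of ATP synthase, Atp5g2 gave the most UMIs in nuclei, 53.0% (50.8 to 55.2) in HF-HHT and 62.3% (59.6 to 64.9) in HF-PBS, while Atp5g3 gave 35.4% (33.3 to 37.6) and 29.0% (26.6 to 31.6). In free RNA Atp5g3 had 46.1% in HF-HHT and 40.3% in HF-PBS and Atp5g2 42.1% and 51.8%. Cox7a2l, a factor that joins complexes III and IV into supercomplexes, gave 66.0% (63.8 to 68.1) of its set in HF-HHT and 74.6% (72.3 to 76.9) in HF-PBS, and Cox7a2 33.6% (31.5 to 35.8) and 25.3% (23.1 to 27.7). These are shares of UMIs, and genes of unlike length are not compared as amounts of RNA. The shares in nuclei of all isoform sets pool every class of a library. The libraries differed in their classes, and the part of this in the shares was not tested. Cox6a1 and Cox7b in macrophage-like nuclei had ratios of 0.98 (0.73 to 1.23) and 0.64 (0.38 to 0.90).

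Genes that work with the members were read from lists of their own. Of the 13 mtDNA-encoded subunits, 13 of 13 measured were 1.5-fold higher in macrophage-like nuclei, with a median log2 ratio of 1.33, against 2 of 10 in adipocyte-like nuclei (median 0.14) and 4 of 11 in APC-like nuclei (0.42). Of all measured genes 25.9% were 1.5-fold higher in macrophage-like, 35.3% in adipocyte-like and 22.9% in APC-like nuclei, and the counts of each list are to be read against these. mt-Nd4, a core subunit of complex I, had 12.5 CPM in HF-HHT and 5.90 CPM in HF-PBS in adipocyte-like nuclei, for a log2 ratio of 1.08 (0.20 to 2.12), and mt-Atp6, of complex V, 13.5 and 16.6 CPM, for a log2 ratio of -0.30 (-0.87 to 0.31). Of 44 measured assembly factors 15 were higher and 1 lower in adipocyte-like nuclei (median 0.43), 6 and 1 of 40 in APC-like nuclei (0.18) and 14 and 1 of 48 in macrophage-like nuclei (0.26). Ndufaf7, a methyltransferase needed for the assembly of complex I, gave 1.84 (0.57 to 3.50) in adipocyte-like nuclei on 96 and 5 UMIs, and Taco1, an activator of mitochondrial COX1 translation, -0.60 (-0.74 to -0.46) on 1865 and 529. Tricarboxylic acid cycle genes had medians of 0.27, 0.13 and 0.36 in the adipocyte-like, APC-like and macrophage-like nuclei. Suclg2, a subunit of succinyl-CoA ligase, had 127 CPM in HF-HHT in adipocyte-like nuclei, against 62.7 CPM in HF-PBS, for a log2 ratio of 1.02 (0.75 to 1.31).

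Among 15 measured regulators of respiratory genes, 5 were 1.5-fold higher and 0 lower in adipocyte-like nuclei (median 0.39), beside 35.3% and 12.2% of all genes, and the medians were 0.01 in APC-like and 0.16 in macrophage-like nuclei. Ppargc1a, the coactivator PGC-1alpha that drives mitochondrial biogenesis, had 16.7 CPM in HF-HHT (167 UMIs) and 4.29 CPM in HF-PBS (8 UMIs) in adipocyte-like nuclei, with an interval of 0.95 to 3.20 for the log2 ratio, and its free RNA level was 22.3 and 4.34 CPM. In APC-like nuclei it had 28.6 CPM in HF-HHT (79 UMIs) and 1.38 CPM in HF-PBS (7 UMIs), for a log2 ratio of 4.37 (3.26 to 5.73). The level in HF-HHT lay within 1.5-fold of the 22.3 CPM in free RNA. The adipocyte markers in APC-like nuclei were also higher in HF-HHT, at 571 and 247 CPM, and their part was not tested. Ppargc1a had 1.67 and 3.11 CPM in macrophage-like nuclei, for a log2 ratio of -0.90 (-1.73 to -0.13). Tfb1m, a methyltransferase of mitochondrial ribosomal RNA, had 14.7 CPM (147 UMIs) and 2.68 CPM (5 UMIs) in adipocyte-like nuclei, for a log2 ratio of 2.46 (1.20 to 4.10). Among carriers, the ADP/ATP translocases Slc25a4 and Slc25a5 gave 1.22 (0.24 to 2.38) and 1.46 (0.03 to 3.38) in adipocyte-like nuclei, and Ucp2, an uncoupling protein homologue, -0.93 (-1.53 to -0.30). Of 4 nuclear-retained RNAs, 0 were 1.5-fold higher in the 3 main classes, and 2 were lower in adipocyte-like, 1 in APC-like and 1 in macrophage-like nuclei. Malat1, which did not pass 1.5-fold, had 39799 CPM in HF-HHT and 49342 CPM in HF-PBS in adipocyte-like nuclei and 32200 and 43366 CPM in macrophage-like nuclei. In the adipocyte-like nuclei of HF-HHT, Malat1 stood at 220% of its free RNA level and the members at 33.6% of theirs, and in those of HF-PBS at 202% and 49.7%.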

How the data were processed

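Nuclei of frozen epididymal fat were sequenced with the 10x Genomics 3′ v3.1 kit, 1 library of 3 pooled mice a group. Per the labels and the paper's methods, the authors aligned reads to mm10 with Cell Ranger 5.0.0 and deposited raw UMI counts for all barcodes; for the counting of intronic reads, no setting is given in the sources used here. The deposited counts are not normalized. Nuclei were called again after Cell Ranger's rules (expected 3000, free RNA from ranks 45000 to 90000, FDR 0.01), the top 0.8% of doublet scores per 1000 barcodes were removed with Scrublet (scanpy 1.11.5), and nuclei with over 400 genes, under the 95th percentile of UMIs and genes and under 0.5% mitochondrial UMIs were kept. Seurat 5.3.0 gave 14 clusters at resolution 0.15. They were named by the fold of fixed marker genes over the median of the other clusters, a score chosen after the clusters were seen, so names may differ from the study's. UMIs were summed per class and library and given as CPM with exact Poisson intervals, and ratios with exact conditional binomial intervals. A gene was measured with at least 20 counts and called at 1.5-fold, a rule of size and no test. The free RNA share of a class was the lowest ratio of its CPM to free CPM over marker lists of other classes with at least 1000 free UMIs in both libraries. Gene positions come from GENCODE vM21 (GRCm38), matched by ID. Named members were the 5 highest and 5 lowest ratios in each main class, the 5 of highest CPM in each class and in free RNA, complex II, Cyc1, Cycs and the isoform sets, and from each list of related genes up to 4 by ratio in adipocyte-like nuclei; others named were chosen after their values were seen. The members and lists were chosen with earlier results of these data known. edgeR 4.0.16 gave TMM factors only. Ratios were tested on simulated data. Some genes that the rule names are not reported here.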

Additional observations from a re-analysis of the deposited data

Results flagged for a closer look

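Ndufv2 had a log2 ratio of HF-HHT over HF-PBS of -0.44 in macrophage-like nuclei and 0.47 in adipocyte-like nuclei, with counting intervals on opposite sides of 0. It was the 1 member for which this was so among the 3 main classes, and the difference between the classes was not tested.

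Ndufb1-ps, which the naming rule leaves out, had 20.2 CPM in HF-HHT and 12.9 CPM in HF-PBS in adipocyte-like nuclei, a log2 ratio of 0.65 (0.04 to 1.33). It gave 0.70 (0.19 to 1.21) in APC-like nuclei and 1.07 (0.87 to 1.26) in macrophage-like nuclei, where it had 435 UMIs in HF-HHT and 416 in HF-PBS. Its free RNA level was 51.4 CPM in HF-HHT and 26.1 CPM in HF-PBS.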

How the results depend on the processing

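The log2 ratio of the member totals, HF-HHT over HF-PBS, kept its sign in adipocyte-like and macrophage-like nuclei under all 10 settings that give a total. In APC-like nuclei it was reversed to -0.020 after subtraction of free RNA. It moved beyond its counting interval in adipocyte-like nuclei with mitochondrial UMIs below 5% (0.37), TMM (0.18) and median-of-ratios factors (0.15), in APC-like nuclei with no mtDNA-encoded UMI (0.19), TMM (0.12) and median-of-ratios (0.11), and in macrophage-like nuclei with mitochondrial UMIs below 5% (0.64), no upper limits (0.64), no mtDNA-encoded UMI (0.42), TMM (0.46), median-of-ratios (0.45) and subtraction of free RNA (0.55). The count of members 1.5-fold higher was 32 in adipocyte-like nuclei and 21 below 5%, 21 with TMM, 20 with median-of-ratios and 15 at 2-fold. It was 30 in APC-like nuclei and 17 with no mtDNA-encoded UMI, 19 with TMM, 17 with median-of-ratios, 11 after subtraction, 17 at a minimum of 50 counts and 9 at 2-fold, and it was 56 in macrophage-like nuclei and 34 at 2-fold. These recomputed counts stand without the share of all genes under the same setting. Whether the members still exceeded that share was not tested. The count of members lower than free RNA stayed within 1.5 times of the reported one in 71 of 72 recomputed values; with free RNA from barcodes of 10 to 100 UMIs it was 18 in place of 63 in adipocyte-like nuclei of HF-PBS, where that free RNA held 74848 UMIs. With the share read from mtDNA-encoded genes, free RNA would give 18.4% in HF-HHT and 19.3% in HF-PBS of the member UMIs of adipocyte-like nuclei. It would give 42.7% and 29.9% in APC-like nuclei and 40.0% and 22.8% in macrophage-like nuclei. Of the named members' ratios 11 moved beyond their counting interval and 281 did not; among those that moved, Atp5g3 in adipocyte-like nuclei gave 0.88 with no mtDNA-encoded UMI, and Ndufs4 in macrophage-like nuclei -0.15 there and -0.16 with median-of-ratios. The cause of these shifts was not tested. Nuclei with no mtDNA-encoded UMI, nuclei with at least 5000 UMIs and the finer clusters were chosen after seeing the data. No paired analysis was possible because each group has 1 library.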
